A study of Homo sapiens with 4 samples.

Results

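LTBP1 and LINC00486 are neighboring genes on the short arm of human chromosome 2, and they were chosen by name, 2 of 38137 genes counted, because their counts in these same libraries had an unusual ratio between the groups. Their counts in the 4 groups are therefore a description of how they were chosen, and no test is attached to them. The study asked whether aerobic exercise alters the response of lung tumors to radiation, using A549, an established human lung adenocarcinoma line, grown in the flank of male BALB/c athymic nude mice that entered at 6 weeks of age. The combination group ran on a treadmill at 8.0 m/min for 30 min before irradiation of the tumor with 2 Gy, in 3 sessions a week for 2 weeks. The radiation-alone group was irradiated without running, the exercise-alone group ran without irradiation, and the control group had neither. There were 5 mice per group but 1 RNA library per group, and the sources used here do not say whether that library held 1 tumor or a pool. With no replicate, the spread between tumors is unknown, no p-value is given, and every interval covers counting error only. All tumors derive from 1 cell line, nude mice lack T cells, and mouse stroma can enter the tumor, so each library may hold RNA of both species.

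Latent TGF-beta binding proteins are secreted glycoproteins of the extracellular matrix. TGF-beta leaves the cell as an inactive complex with its own propeptide, and LTBP1 binds that propeptide covalently, which fastens the complex to fibrillin microfibrils and fibronectin until integrins, proteases or thrombospondin release the growth factor. Carcinoma cells and fibroblasts both make LTBP1, and TGF-beta signaling through SMAD proteins is known in lung tumors for effects on growth, matrix and invasion. LINC00486 is a long intergenic noncoding RNA gene annotated upstream of LTBP1 on the same strand, and no role is given to it here.

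In RefSeq on GRCh38, LTBP1 occupies chr2:32946953-33399509 on the plus strand (452.6 kb) and LINC00486 occupies chr2:32825441-32842597, also on the plus strand (17.2 kb), with a gap of 104.4 kb between them. GENCODE 29 extends LINC00486 further, to position 32926693. The stretches below are shown because they stand at the ends of the region that the results turn on. RefSeq lists 3 starts of LTBP1, and the one at the start of the gene was used. The promoters, each running from 250 bases before the start of the gene to 50 bases after it (GRCh38.p14, plus strand), lie at chr2:32946703-32947002 for LTBP1 and at chr2:32825191-32825490 for LINC00486. In GENCODE 29, LINC00486 has 2 distinct last exons past position 32903090. The third stretch is the first 300 bases of exon 5, which is among them and 1341 bases long, at chr2:32925353-32925652 on the plus strand. Capitals mark matches to the motifs that were searched for.
LTBP1 promoter: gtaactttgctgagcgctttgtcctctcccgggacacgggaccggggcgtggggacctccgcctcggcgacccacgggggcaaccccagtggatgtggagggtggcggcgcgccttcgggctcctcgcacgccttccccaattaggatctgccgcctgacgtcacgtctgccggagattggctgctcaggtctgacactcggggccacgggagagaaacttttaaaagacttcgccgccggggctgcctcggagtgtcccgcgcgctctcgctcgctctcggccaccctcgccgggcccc
LINC00486 promoter: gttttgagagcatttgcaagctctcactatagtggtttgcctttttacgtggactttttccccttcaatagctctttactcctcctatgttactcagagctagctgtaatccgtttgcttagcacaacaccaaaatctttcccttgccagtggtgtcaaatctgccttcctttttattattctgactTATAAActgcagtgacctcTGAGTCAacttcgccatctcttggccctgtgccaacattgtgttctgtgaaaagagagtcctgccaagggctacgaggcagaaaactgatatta
LINC00486 last exon, first 300 bases: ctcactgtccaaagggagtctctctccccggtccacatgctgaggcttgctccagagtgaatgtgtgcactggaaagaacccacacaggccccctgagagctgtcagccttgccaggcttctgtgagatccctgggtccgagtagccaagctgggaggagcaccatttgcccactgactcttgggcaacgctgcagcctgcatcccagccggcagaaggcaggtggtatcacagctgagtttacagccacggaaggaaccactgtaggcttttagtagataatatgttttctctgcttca

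The promoters differed in composition. The LTBP1 promoter held 33 CG pairs, against 4 in the LINC00486 promoter and a median of 14 over 34796 RefSeq promoters of the same length, and its GC content was 68.7%, against 43.3%. The promoters were searched on both strands for 4 motifs. TGAGTCA is the letters of an AP-1 site, bound by the FOS and JUN families. GGGCGG is the core of the box that SP1 recognizes. TATAAA is the TATA box found near the start of some genes. The palindrome GTCTAGAC is bound by SMAD proteins. The LINC00486 promoter held 1 AP-1 match and 1 TATA match, while none of the 4 motifs was found in this LTBP1 promoter, and its other starts are not described here. In the order named, the motifs occur in 4.96%, 44.9%, 11.6% and 0.193% of all promoters searched. A match is a run of letters and not a measured binding site.

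Summed over all genes, the counts of a library came to between 33432637 in the combination group and 35408705 in the radiation-alone group. A read counted for more than 1 gene enters this sum more than once, so it is not the number of reads sequenced. The 13 protein genes of the mitochondrial genome took 5.42% to 6.62% of the summed counts. All 10 listed A549 and lung epithelial markers were detected in the 4 libraries. Their summed level lay between 14507 and 15585 scaled counts relative to library size (CPM). No markers of other cell lines were set beside them, so the label of the cells was not tested.

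LTBP1 had 28315 reads in the combination group, 9161 in the radiation-alone group, 5558 in the exercise-alone group and 10847 in the control group. LINC00486 had 26481 reads in the combination group, 7326 in the radiation-alone group, 3850 in the exercise-alone group and 9235 in the control group. Both genes were thus highest with the combination and lowest with exercise alone, with the radiation-alone and control libraries close together between them. By count, LTBP1 was the 77th gene of the combination library, the 469th with radiation alone, the 983rd with exercise alone and the 335th in control. LINC00486 ranked 84th, 671st, 1726th and 456th in the same order of libraries. The count of LTBP1 spanned a 5.09-fold range over the libraries and that of LINC00486 a 6.88-fold range.

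**Figure D1:**
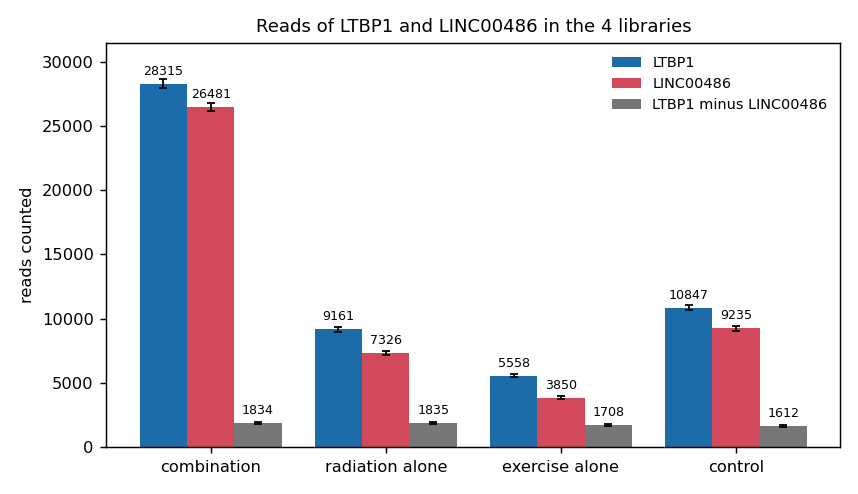
Reads counted for LTBP1, for LINC00486 and for LTBP1 less LINC00486 in each library (vertical axis, reads), with exact 95% Poisson intervals that cover counting error only. The first 2 bars are tallest in the combination group, at 28315 and 26481 reads, while the gray bars stay between 1612 and 1835 reads.

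After scaling for library size and composition, the level of LTBP1 was 865 CPM in the combination group, 263 CPM in the radiation-alone group, 161 CPM in the exercise-alone group and 304 CPM in the control group. The level of LINC00486 was 809 CPM with the combination, 211 CPM with radiation alone, 111 CPM with exercise alone and 259 CPM in control. Against radiation alone, the combination library was higher by 1.71 on the log2 scale for LTBP1 and by 1.94 for LINC00486. Genes at least 2-fold higher in that comparison made up 0.418% of the 19393 that were compared, those averaging 20 or more reads a library. Among the 7773 that averaged 1000 or more reads, LINC00486 ranked first and LTBP1 second. Below them stood DUSP1, a phosphatase that switches off MAP kinases, at 1.87-fold, and NR4A1, an immediate early nuclear receptor, at 1.73-fold. At the other end of that ranking stood the long noncoding RNA CASC19 and the genes ANKRD18A, MFAP5, IGFL4 and MUC2, between 2.04-fold and 1.85-fold lower with the combination, and 0.887% of all genes were at least 2-fold lower. Since the members were chosen from these values, nothing is read from their ranks.

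**Figure D2:**
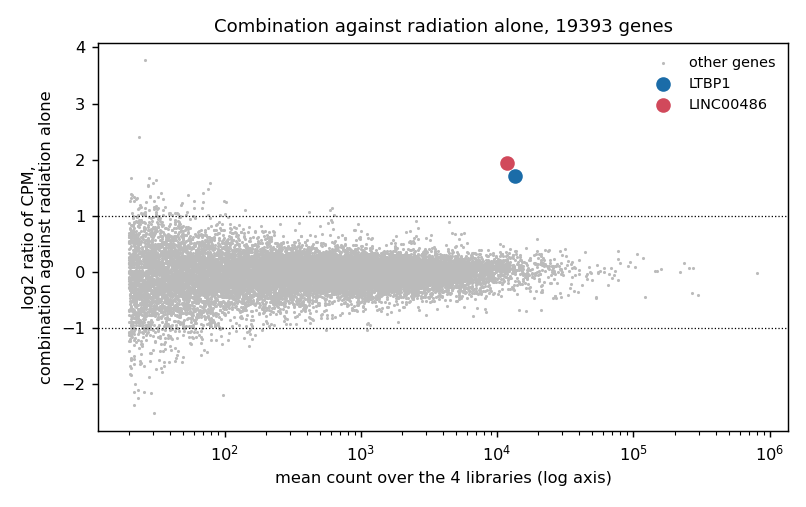
Log2 ratio of CPM in the combination group over the radiation-alone group (vertical axis) against the mean count over the 4 libraries (horizontal log axis) for 19393 genes, with dotted lines at 2-fold. LINC00486 at 1.94 and LTBP1 at 1.71 lie above the other genes of similar count.

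Against exercise alone, LTBP1 was 5.37-fold higher with the combination (5.22 to 5.53) and LINC00486 was 7.26-fold higher (7.02 to 7.51). Genes at least 2-fold higher made up 2.92% of the genes compared. Against control, LTBP1 was 2.85-fold higher with the combination (2.78 to 2.91) and LINC00486 was 3.13-fold higher (3.05 to 3.20), where 2.27% of genes were at least 2-fold higher. The combination library therefore lay above each of the other 3 for both genes. Radiation alone differed little from control, with LTBP1 1.15-fold lower (1.12 to 1.19) and LINC00486 1.23-fold lower (1.19 to 1.27). Neither was among the 0.897% of genes at least 2-fold lower in that comparison.

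Exercise alone against control ran the other way from exercise added to radiation. LTBP1 was 1.89-fold lower with exercise alone (1.83 to 1.95), short of the 2-fold threshold, and LINC00486 was 2.32-fold lower (2.24 to 2.41). Genes at least 2-fold lower were 0.701% of those compared. A total of 10 genes, or 0.0516%, were at least 2-fold higher with exercise in irradiated tumors and at least 1.5-fold lower with exercise in unirradiated tumors. Besides LTBP1, LINC00486 and SCUBE2, a secreted protein with EGF-like repeats, each of these had at most 68 reads in any library. With 2-fold asked in both directions, 3 genes (0.0155%) remained, LINC00486 among them, and 36 (0.186%) were 2-fold higher with radiation and lower by any amount without it. The difference between the effects with and without radiation was not tested.

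The count of LTBP1 less that of LINC00486 was 1834 reads in the combination group, 1835 in the radiation-alone group, 1708 in the exercise-alone group and 1612 in the control group. This remainder was nearly the same in every library, with a highest over lowest ratio of 1.14. Put as a change between libraries, the combination exceeded radiation alone by 19154 reads for LTBP1 and by 19155 reads for LINC00486. The combination exceeded exercise alone by 22757 reads for LTBP1 and by 22631 for LINC00486, and it exceeded control by 17468 and 17246 reads. Exercise alone had 5289 fewer LTBP1 reads and 5385 fewer LINC00486 reads than control. In these 4 comparisons the genes moved by nearly the same number of reads. Radiation alone had 1686 fewer LTBP1 reads and 1909 fewer LINC00486 reads than control, a smaller change in which the numbers lay further apart. The ratio of LTBP1 reads to LINC00486 reads, which no scaling between libraries can alter, was 1.07 (1.05 to 1.09) with the combination. It was 1.25 (1.21 to 1.29) with radiation alone, 1.44 (1.39 to 1.50) with exercise alone and 1.17 (1.14 to 1.21) in control. The intervals of this ratio take the counts of the genes as independent, which fails if reads were counted for both.

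On the CPM scale the remainder was 56.0 with the combination, 52.8 with radiation alone, 49.4 with exercise alone and 45.1 in control. It was 1.06-fold higher with the combination than with radiation alone (0.994 to 1.13), against 3.28-fold for LTBP1 as deposited. It was 1.13-fold higher than with exercise alone (1.06 to 1.21) and 1.24-fold higher than in control (1.16 to 1.33). With exercise alone it was 1.10-fold higher than in control (1.02 to 1.17), where the LTBP1 count as deposited was lower. These intervals take the remainder as a count of its own, which holds only if every LINC00486 read was also counted for LTBP1.

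Whether a read could be counted for both genes was examined from the way the files were made. The deposited FPKM (fragments scaled to gene length and library size) divides a count by a gene length, so count, FPKM and library total together give the length that was used. This length was within 1% of the whole RefSeq span, introns included, for 13757 of 17484 genes (78.7%). The nearby genes TTC27, BIRC6, RASGRP3 and FAM98A had implied lengths of 192.7, 262.2, 128.3 and 15.6 kb, against RefSeq spans of 193.0, 261.9, 128.4 and 15.6 kb. LTBP1 did not match its span, with an implied length of 497.3 kb against 452.6 kb. LINC00486 was further away, with 120.7 kb against 17.2 kb.

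The implied lengths add up to 618.0 kb, which is 44.0 kb more than the 574.1 kb between the RefSeq start of LINC00486 and the RefSeq end of LTBP1. If those outer limits were the ones used, LINC00486 ran to position 32946146 and LTBP1 began at 32902195, and both contained chr2:32902195-32946146. The last LINC00486 exon printed above lies in that stretch. These positions follow from the lengths and from the assumption on the outer limits, and the annotation release behind the files was not used here.

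**Figure D3:**
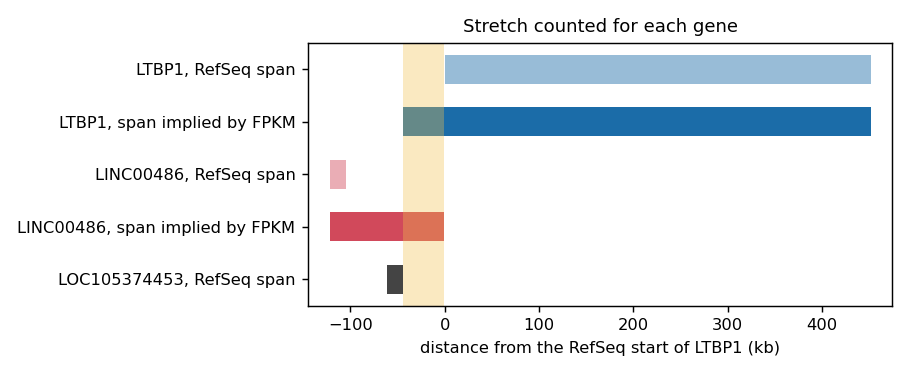
Spans of LTBP1, LINC00486 and LOC105374453 as distance in kb from the RefSeq start of LTBP1, with the spans implied by the FPKM values drawn from the RefSeq end of LTBP1 and the RefSeq start of LINC00486. The yellow band is the 44.0 kb that both implied spans contain, upstream of LTBP1 in RefSeq.

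Counts of other overlapping genes were compared with those that would arise if a read was counted for every gene it lay in. Nested pairs were drawn from genes with an implied length within 1% of the RefSeq span, which left out LTBP1 and LINC00486. An outer gene is also longer, and how often it would have more reads under another way of counting was not tested. Where 1 gene lay wholly inside another on the same strand, the outer gene had at least as many reads as the inner one in all 4 libraries for 487 of 487 pairs. The same held for 208 of 212 pairs on opposite strands (98.1%), as they would if strand was not used in counting, although the library kit marks it. Of 440 pairs with an unknown strand, 438 did so, and in the exception furthest off the inner gene PITPNA had up to 3.69 times the reads of its outer gene. The readthrough genes COMMD3-BMI1, IQCJ-SCHIP1 and INS-IGF2 had exactly the summed count of their parts in every library, and 28 of 123 readthrough genes were within 1% of that sum. The other 95 were further away, and 20 of the 123 were below the sum in all 4 libraries, such as POC1B-GALNT4 with 5479 reads against 13471 in the combination library. How reads of LTBP1 and LINC00486 in particular were assigned was not tested. On the outer limits assumed above, LINC00486 was not nested in LTBP1, since 44.0 of its 120.7 kb lay in both spans. The nested pairs are therefore no guide to this pair. The LINC00486 count was 93.5%, 80.0%, 69.3% and 85.1% of the LTBP1 count in the combination, radiation-alone, exercise-alone and control libraries.

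LOC105374453, an uncharacterized noncoding gene on the minus strand at chr2:32885988-32903090, lies within the implied span of LINC00486. It had 0 reads in the combination group, 1 in the radiation-alone group, 0 in the exercise-alone group and 2 in the control group, and a count of 0 allows up to 3 reads. If a read was counted for every gene it lay in, on either strand, its 17.1 kb could hold almost none of the LINC00486 reads. Whether reads were counted in that way was not tested. The stretch in both implied spans outside it is 43.1 kb long. The implied span of LINC00486 also runs from position 32825441 up to LOC105374453, and that part is not in the implied span of LTBP1. RefSeq also places LOC100271832 in that stretch, at chr2:32927087-32946136 (19.05 kb), and no count of it is given here. Counts per gene do not show where within a gene its reads lie, so whether they fell on LTBP1 exons, in introns, upstream of the RefSeq start or at a single place was not tested. Of 6284 distinct 50-base words in LTBP1 transcripts, 155 also occur in another GENCODE 29 gene, AC019127.1, and none of the 3262 words of LINC00486 occurs in another gene. Introns were not searched in this way.

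FPKM levels, which are per length of the stretch counted, were 1.703 for LTBP1 with the combination, 0.520 with radiation alone, 0.326 with exercise alone and 0.630 in control. For LINC00486 the FPKM level was 6.562 with the combination, 1.714 with radiation alone, 0.930 with exercise alone and 2.211 in control. Per length counted, LINC00486 therefore lay above LTBP1 in every library although it had fewer reads. Since the length includes introns, these levels cannot be read as the abundance of spliced transcripts.

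Genes of the surrounding stretch of the chromosome were compared in the same way. Within 2 Mb of LTBP1 the files held 38 genes, of which 18 besides LTBP1 and LINC00486 reached the minimum count. Their log2 ratios of the combination over radiation alone lay between -0.46 and 0.42. Of these, 0 of 18 were at 2-fold in either direction, where 1.3% of all genes were. For exercise alone over control the range was -0.28 to 0.66, again with 0 of 18 at 2-fold, where 1.53% of all genes were. Such small shares would leave few or no genes among 18. TTC27, a tetratricopeptide repeat gene that ends shortly before LINC00486 begins, had 637 reads with the combination, 564 with radiation alone, 807 with exercise alone and 820 in control. BIRC6, a ubiquitin ligase that inhibits apoptosis, had 4349 reads with the combination and 6331 with radiation alone, the lowest ratio of the 18. On the other side of LTBP1, RASGRP3, a guanine nucleotide exchange factor for RAS, had 725 reads with the combination, 630 with radiation alone, 385 with exercise alone and 379 in control. RASGRP3 and its antisense partner RASGRP3-AS1 were 2.08-fold and 2.18-fold higher with the combination than in control, the 2 genes of the 18 at 2-fold there. Of all genes, 2.27% were at least 2-fold higher in that comparison. The spans of RASGRP3 and RASGRP3-AS1 overlap, and the strand setting is not stated, so reads of these antisense partners may not have been separated. For radiation alone over control, 1 of 18 was at least 2-fold higher, as were 1.89% of all genes. This was SRD5A2, with 49 reads with radiation alone and 24 in control.

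**Figure D4:**
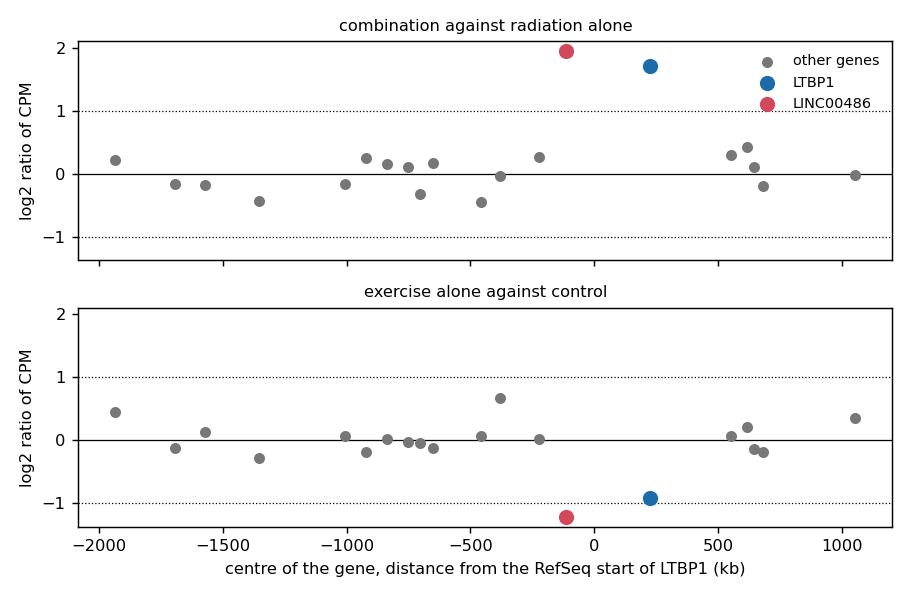
Log2 ratio of CPM (vertical axes) by the position of the gene centre in kb from the RefSeq start of LTBP1, for the combination over radiation alone (upper panel) and exercise alone over control (lower panel). LINC00486 and LTBP1 stand at 1.94 and 1.71 above and at -1.21 and -0.92 below, while the other 18 genes stay within the dotted 2-fold lines.

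Of 8 other genes of the latent complex, 7 reached the minimum count, and 0 of 7 were at 2-fold in either direction in any of the 5 comparisons. Of all genes, 1.3%, 5.98% and 4.04% were at 2-fold in either direction for the combination against radiation alone, exercise alone and control, and 2.78% and 1.53% for radiation alone and exercise alone against control. Their median log2 ratio of the combination over radiation alone was -0.05, against 0.00 over all genes. LTBP3, a relative of LTBP1, had 6159 reads with the combination, 6758 with radiation alone, 6479 with exercise alone and 6211 in control. TGFB1, the most studied TGF-beta ligand, had 1675 reads with the combination, 1545 with radiation alone, 1639 with exercise alone and 1378 in control. LRRC32, which holds latent TGF-beta on regulatory T cells and platelets, had 121 reads with exercise alone and 231 in control, a log2 ratio of -0.88. LTBP4 was at -0.71 for the combination over exercise alone. TGFB2 had the highest log2 ratio of the combination over radiation alone among the 7, at 0.43. NRROS, which holds latent TGF-beta on microglia and macrophages, had at most 10 reads and was not compared.

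Of 16 microfibril and matrix genes, 13 were compared. Between the combination and radiation alone, 0 of 13 were at 2-fold (median log2 ratio -0.04), where 1.3% of all genes were. FBN1, the fibrillin that anchors LTBP1, had 1378 reads with the combination, 1277 with radiation alone, 1292 with exercise alone and 1240 in control. FN1, fibronectin, differed by 0.32 on the log2 scale between the combination and radiation alone. The lowest of the list was MFAP5, a microfibril glycoprotein of fibroblasts, with 596 reads in the combination group, 1200 in the radiation-alone group, 1280 in the exercise-alone group and 1333 in the control group. MFAP5 was the 1 gene of the 13 at least 2-fold lower with the combination than with exercise alone, and likewise against control, directions shared by 3.06% and 1.77% of all genes.

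Activators of latent TGF-beta numbered 14 compared, with 0 of 14 at 2-fold between the combination and radiation alone (median log2 ratio 0.08). In that comparison 1.3% of all genes were at 2-fold. With exercise alone, 2 of 14 exceeded control by 2-fold or more, as did 0.83% of all genes, and 0 of 14 were at least 2-fold lower. These were ITGB6, the integrin subunit that pulls TGF-beta from its propeptide, with 812 reads with exercise alone and 418 in control, and MMP9, a gelatinase, with 78 and 36 reads. The same 2 genes were at least 2-fold lower with the combination than with exercise alone, as were 3.06% of all genes. The median log2 ratio of exercise alone over control was 0.40 over the 14 activators.

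Among 9 receptors and SMADs compared, 0 of 9 were at 2-fold in any of the 5 comparisons, where 1.3% to 5.98% of all genes were. Such shares would leave few or no genes among 9. SMAD4, the common mediator of the pathway, was at -0.01 and SMAD7, its feedback inhibitor, at 0.14 on the log2 scale between the combination and radiation alone. Of 14 target genes, 0 of 14 were at 2-fold in that comparison, where 1.3% of all genes were. Above 0 were 9 of 14, with a median log2 ratio of 0.25. JUNB, a subunit of AP-1, was at 0.69 and CCN2, a matricellular protein, at 0.56 on that scale. Against control, 1 of 14 was at least 2-fold higher with the combination and 1 of 14 lower (median log2 ratio 0.38). Of all genes, 2.27% and 1.77% were. The lower target was COL1A1, the main fibrillar collagen. With exercise alone, 12 of 14 targets were above 0 against control (median 0.55, against 0.00 over all genes). The basement membrane collagen COL4A1 and the transcription factor SNAI2 were at least 2-fold higher, as were 0.83% of all genes. COL4A1 was in turn the 1 target at least 2-fold lower with the combination than with exercise alone, a direction shared by 3.06% of all genes.

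**Figure D5:**
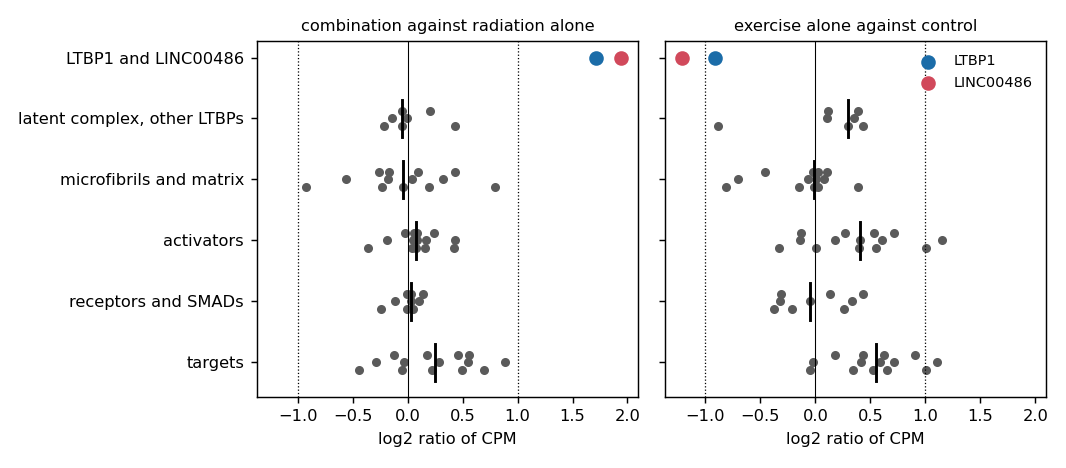
Log2 ratios of CPM (horizontal axes) for LTBP1 and LINC00486 and for 5 lists of TGF-beta pathway genes (rows), with 1 point per gene, a bar at the median of each list and dotted lines at 2-fold. In the left panel every listed gene stays within 2-fold, and in the right panel the median of the targets is 0.55. LTBP1 is drawn from its count as deposited.

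Genes listed as markers of host cell types also varied between the libraries, and their part in the levels of LTBP1 and LINC00486 was not tested. Reads were aligned to the human genome, so these counts may be RNA of the tumor cells or mouse reads that align there. Which of these they were was not tested. The summed level of 12 fibroblast markers was 208 CPM with the combination, 253 CPM with radiation alone, 379 CPM with exercise alone and 372 CPM in control. Of these, 10 were compared, and 0 of 10 were 2-fold apart between the combination and radiation alone, where 1.3% of all genes were. Against control, 5 of 10 were at least 2-fold lower with the combination, as were 1.77% of all genes. MFAP5 and COL1A1, named above, are also on this list. Skeletal muscle markers, 12 in number, summed to 71.8 CPM with the combination, 66.0 with radiation alone, 26.8 with exercise alone and 25.5 in control. In this order 0, 0, 3 and 4 of the 12 were at 0 reads. Most of the sum in the unirradiated libraries was TTN, at 20.7, 26.2, 20.9 and 20.7 CPM, while MYH1 had 258, 278, 11 and 0 reads. Of 9 compared, 7 were at least 2-fold higher with the combination than in control and 0 lower (median log2 ratio 4.87). Of all genes, 2.27% were at least 2-fold higher there. Macrophage markers summed to 491, 427, 358 and 369 CPM in the same libraries, and the defining genes C1QA and C1QB had no read in any library. CSF1R, the largest part of that sum, was at 251, 239, 267 and 278 CPM. LYZ ran the other way, at 124, 81.8, 40.9 and 41.8 CPM, as did CD68, at 110, 101, 44.6 and 44.3 CPM. Endothelial markers summed to 8.36, 12.4, 17.3 and 21.9 CPM. In bulk tissue, a different share of cells of a type and a different amount of RNA per cell cannot be told apart. RNAs without a polyA tail, which a polyA selection should remove, summed to 4008 CPM with the combination and 5690 CPM with radiation alone. The sum was 2592 CPM with exercise alone and 5024 CPM in control. It can hold a read more than once, because the list has the precursor RNA45SN1 beside its parts RNA18SN1 and RNA28SN1. RNA45SN1 by itself was at 1462, 1983, 952 and 1800 CPM in the same order of libraries. The part of these RNAs was not tested either.

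By Euclidean distance between centered log2 CPM over the 4 libraries, among 13780 genes averaging 200 or more reads, LTBP1 and LINC00486 were each other's nearest gene (distance 0.31). The next nearest to both were SCUBE2, at 0.56 from LTBP1 and 0.85 from LINC00486, and NRIP3-DT, a noncoding gene, at 0.61 and 0.86. SCUBE2 had 1073 reads with the combination, 566 with radiation alone, 336 with exercise alone and 559 in control, and NRIP3-DT had 1025, 586, 306 and 522 reads. This is a second pair of neighbors with nearly equal counts, on chromosome 11, and their RefSeq spans overlap by 48.3 kb. Then came ADH1C, an alcohol dehydrogenase, with 663 reads with the combination, 382 with radiation alone, 147 with exercise alone and 211 in control. Of the 10 nearest genes of each member, 6 were shared, among them BATF2, SLCO2B1 and HSD17B6. QPRT, CHGB and A1CF were near LTBP1 alone, and IFITM1, ISG15 and SERPINA6 near LINC00486 alone. With 4 libraries, such likeness describes these libraries and nothing further is read from it.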

How the data were processed

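RNA of A549 tumors was measured in 4 groups with 1 library each, mapped by the treatment given in the labels. The authors made polyA-selected libraries with a stranded kit, removed adapters (the submitters' processing notes name cutadapt), aligned reads to GRCh38 with Bowtie2 2.3.4.1 and counted them with featureCounts 1.6.0. The annotation release and the strand and overlap settings are not stated in the sources consulted. For 38137 genes the authors deposited raw counts of reads. FPKM values were deposited beside them with 3 decimals, from which the gene length used was computed where FPKM was at least 0.1.

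From the counts, CPM were computed with TMM factors (edgeR 4.0.16, R 4.3.3) over the 19393 genes averaging at least 20 reads, and log2 ratios with a prior of 0.5 counts. The 2-fold threshold follows the study. Intervals are exact at 95% (Clopper-Pearson for ratios, Poisson for counts). Nested pairs were of genes with an implied length within 1% of the RefSeq span, with an inner gene averaging at least 50 reads. Readthrough genes averaged at least 300. Positions and promoters are from RefSeq, in which 35481 of the genes matched by symbol, and exons from GENCODE 29.

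The genes named were LTBP1 and LINC00486, genes within 2 Mb, the 5 pathway lists, the 10 genes nearest in pattern to each, and the 5 highest and 5 lowest ratios of the combination over radiation alone at a mean count of at least 1000. The members, the 11 lists and these rules were chosen with earlier results of these data known. A gene that these rules name is not reported here. Alternatives were total counts, DESeq2 1.42.0 size factors, another prior, FPKM, other count minimums and, added after the data were seen, the LTBP1 count less the LINC00486 count. The computations were checked on simulated data. Further steps used matplotlib 3.10.9, scipy 1.17.1, pandas 2.3.3 and numpy 2.4.6 in python 3.11.15.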

Additional observations from a re-analysis of the deposited data

Results flagged for a closer look

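Exercise went with opposite directions in irradiated and unirradiated tumors for both genes, which is what drew attention to them here. For LTBP1 the log2 ratio was 1.71 for the combination over radiation alone and -0.92 for exercise alone over control. For LINC00486 the same ratios were 1.94 and -1.21. The LTBP1 count less the LINC00486 count was at 0.086 and 0.13 in these comparisons. If reads were counted for both genes, they are not 2 separate cases, and this was not tested. Of 19393 genes, 3 (0.0155%) were at least 2-fold higher in the first comparison and at least 2-fold lower in the second. LINC00486 was among them, and LTBP1 fell short of 2-fold in the second. Genes 2-fold higher in the first and lower by any amount in the second numbered 36 (0.186%). With 1 library in each group the difference between the effects was not tested.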

How the results depend on the processing

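Under DESeq2 size factors and a prior of 2 counts, each log2 ratio of LTBP1 and LINC00486 stayed within counting error of the value reported and each count of genes at 2-fold within 1.5 times. Under total counts, LTBP1 was at 1.43 and LINC00486 at 1.57 for the combination over control, and at -0.28 and -0.37 for radiation alone over control. With 0.1 added to FPKM, LTBP1 was at 1.54, 2.08 and 1.30 for the combination over radiation alone, exercise alone and control and at -0.78 for exercise alone over control, while LINC00486 was at 1.88, 2.69 and 1.53 for the combination and at -0.35 for radiation alone over control. The LTBP1 count less the LINC00486 count, an alternative added after the data were seen, gave 0.086, 0.18 and 0.31 for the combination over radiation alone, exercise alone and control, 0.23 for radiation alone over control and 0.13 for exercise alone over control. It took LTBP1 below 2-fold in the 3 comparisons of the combination and above 0 in the other 2.

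Genes at 2-fold in either direction numbered 253, 1159, 784, 540 and 297 for the combination against radiation alone, exercise alone and control and for radiation alone and exercise alone against control. They numbered 36, 422, 241, 159 and 74 with FPKM, 5601, 6686, 6475, 6055 and 5632 with no minimum count, where most added genes have few reads, and 23, 597, 325, 221 and 71 with a mean count of at least 100, where fewer genes were tested. The share of these that were higher was 56.25% for the combination against control, 45.4% under total counts and 66.4% with FPKM, and 67.8% for radiation alone against control, 57.6% under total counts. A mean count of at least 50 kept 5 of the 10 genes nearest to LTBP1 and 6 of those nearest to LINC00486, and Pearson correlation kept 1 and 1. No paired analysis was possible because each group has 1 library, and no library could be left out for the same reason. The main limits are the single library per group and the stretch that both counted genes may contain, since these counts do not separate its reads from those of the rest of LTBP1.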
